A study of Homo sapiens with 4 samples.

Results

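Semaphorins are a family of secreted and membrane-bound signalling proteins that share an extracellular sema domain. They were first described as guidance cues for growing axons and are also known for roles in immune cells, blood vessels and bone. The 10 genes described here are SEMA3A, SEMA3C, SEMA4A, SEMA4B, SEMA4C, SEMA4D, SEMA4F, SEMA4G, SEMA6D and SEMA7A. They were selected on gene family and with earlier results of the same libraries known, so their own differences between the groups are given as a description. The list came with no threshold of level or of difference. The human family holds 10 further semaphorin genes, and the count files hold 63677 genes in all, with each of the 10 described genes found as 1 row by symbol.

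The cells were H929, an established human multiple myeloma line derived from malignant plasma cells. The knockdown group had been transduced with a short hairpin RNA (shRNA) against ILF2, and the control group with a non-silencing shRNA, with 2 libraries of total RNA depleted of ribosomal RNA in each group. ILF2 encodes a protein that forms complexes on double-stranded RNA. The hairpin sequences, the number of hairpins and the time after transduction are not given in the sources used here. The submitters call the replicates independent without saying whether they were separate transductions. P-values therefore measure the spread between these libraries.

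The ILF2 shRNA libraries held 63459322 and 71359863 counted fragments, and the non-silencing libraries 72977082 and 71389341. Scaled by these totals, replicates differed more with ILF2 shRNA (chi-square per gene 18.39) than with the non-silencing shRNA (9.059). The top 5 genes of each library held 10.3% and 12.31% of fragments with ILF2 shRNA, and 10.21% and 10.48% with the non-silencing shRNA. A level is given as CPM, which is counted fragments scaled to a common library size by normalisation, and between genes as CPM per kb of exon, since longer transcripts give more fragments. ILF2 had 107 and 114 CPM in the ILF2 shRNA libraries, against 717 and 733 CPM in the non-silencing libraries (edgeR log2 fold change -2.71, SE 0.07, adjusted p = 9.2e-39). Of the 9 plasma cell markers checked, 9 were expressed, SDC1 and XBP1 among them, while the other marker lists summed to 17.1 CPM or less in every library. Most of that was CD3E, a T-cell receptor complex gene, at 16.1 and 17.0 CPM with ILF2 shRNA against 8.22 and 7.49 CPM with the non-silencing shRNA. The other 3 T-cell markers with a row (CD3D, CD3G and CD2) had 4 fragments or fewer in each library. The mitochondrial share of fragments was 0.516% and 0.463% in the ILF2 shRNA libraries, against 0.351% and 0.307% in the non-silencing libraries, and the part of this difference in the values below was not tested.

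In these proteins the sema domain binds plexins, a family of cell-surface receptors whose inner part acts on small GTPases and through them on the cytoskeleton and on adhesion. Class 3 semaphorins are secreted and mostly need a neuropilin as co-receptor. Classes 4 and 6 are transmembrane proteins, some of which can be shed, and SEMA7A is held in the membrane by a glycolipid anchor. In bone and marrow, SEMA4D is known as an inhibitor of bone-forming osteoblasts through plexin-B1, and SEMA4A is known as a surface protein of myeloma cells.

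Class 4 genes made up most of the semaphorin transcripts in these cells, and SEMA4A stood far above the rest. SEMA4A (ENSG00000196189, GRCh37 chromosome 1, 156117157 to 156147543, plus strand) had 74.3 and 78.6 CPM per kb in the ILF2 shRNA libraries, against 67.8 and 63.7 CPM per kb in the non-silencing libraries. Over the 20 semaphorin genes summed per kb, it took 70.1% ± 0.0345 of the total with ILF2 shRNA and 67.3% ± 0.325 with the non-silencing shRNA (SD, n = 2 each). The 10 described genes together took 96.5% ± 0.102 with ILF2 shRNA and 96.7% ± 0.134 with the non-silencing shRNA (SD, n = 2 each). SEMA4C came next at a mean of 11.3 CPM per kb over the 4 libraries, a level 6.27 times below that of SEMA4A, then SEMA4B at 5.20 and SEMA4D at 4.23. The order depends on exon length, taken over all annotated exons, which is 14160 bases for SEMA4D and 7011 for SEMA4B. In CPM alone SEMA4D had means of 73.5 with ILF2 shRNA and 46.3 with the non-silencing shRNA, above 37.9 and 34.9 for SEMA4B. SEMA3C had a mean level of 2.64 CPM per kb, SEMA7A 1.96, SEMA4F 1.79 and SEMA6D 1.47.

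SEMA3A and SEMA4G lay far lower, at mean levels of 0.0701 and 0.0523 CPM per kb, and SEMA6D, the next gene above them, stood 21.0 times higher than SEMA3A. The ranges over the 4 libraries, with both groups pooled, overlapped between SEMA4B and SEMA4D and between SEMA3C and SEMA7A. They also overlapped between SEMA7A and SEMA4F, and between SEMA3A and SEMA4G. For SEMA3A and SEMA4G the order is not separated from their spread. SEMA4B was above SEMA4D in every library, though their ranges met under ILF2 shRNA (5.30 and 5.52 against 5.08 and 5.30 CPM per kb). With the non-silencing shRNA SEMA4B had 5.04 and 4.93 against 3.40 and 3.14 for SEMA4D. The order of SEMA7A and SEMA4F differed by group, with no overlap in either group. SEMA4F had 1.82 and 1.81 CPM per kb in the ILF2 shRNA libraries, above SEMA7A. In the non-silencing libraries SEMA4F had 1.80 and 1.72, below SEMA7A. SEMA3C was above SEMA7A under ILF2 shRNA, and the 2 genes overlapped under the non-silencing shRNA. SEMA3C had 3.10 and 3.04 CPM per kb and SEMA7A 1.65 and 1.68 CPM per kb in the ILF2 shRNA libraries, whereas in the non-silencing libraries SEMA3C had 2.26 and 2.15 and SEMA7A 2.37 and 2.12.

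**Figure D1:**
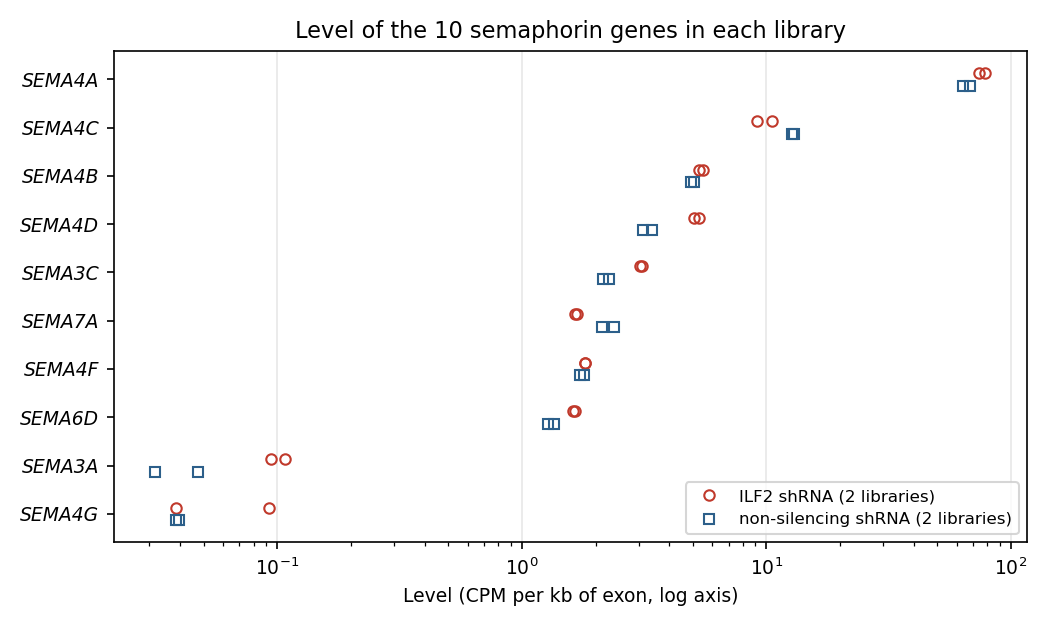
Level of each of the 10 semaphorin genes in each library, in CPM per kb of exon on a log axis, with genes ordered by their mean over the 4 libraries. Circles are the 2 ILF2 shRNA libraries and squares the 2 non-silencing libraries. SEMA4A stands at 63.7 to 78.6 CPM per kb, and SEMA3A and SEMA4G lie below 0.11 CPM per kb.

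All 10 genes passed the filter on low counts. Of the 10, 5 were called higher and 2 lower with ILF2 shRNA by edgeR's quasi-likelihood test, where called means an adjusted p under 0.05 over the 19142 genes tested. Among all tested genes 20.3% were called, 10.2% higher and 10.1% lower. In 9 of the 10 genes both libraries of one group lay outside the range of the other group, and the same was true of 56.5% of the tested genes overall. The median log2 fold change of the 10 was 0.26, beside 0.00 over all tested genes, and the values ran from -0.44 to 1.34. The genes were chosen with these differences known, so nothing is read from the counts. In total RNA from a culture, a lower share of cells with a transcript and less of it per cell cannot be told apart.

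Both secreted class 3 genes among the 10 described were higher with ILF2 shRNA. Of the other class 3 genes, SEMA3G was also called higher. SEMA3B, SEMA3D and SEMA3F were not called (log2 fold changes of -0.12, 0.10 and -0.05), and SEMA3E had no fragment. SEMA3A, the classical repellent of axons, which acts through neuropilin-1 and class A plexins, was near the lower limit of what was measured, with 64 and 61 fragments in the ILF2 shRNA libraries against 22 and 32 in the non-silencing libraries. This was 1.00 and 0.881 CPM with ILF2 shRNA and 0.297 and 0.444 CPM with the non-silencing shRNA, a log2 fold change of 1.34 (SE 0.28). The groups did not overlap, but the value rests on few fragments and ranged from 1.08 without non-silencing replicate 1 to 1.66 without non-silencing replicate 2. SEMA3A lies on chromosome 7 (ENSG00000075213, 83585093 to 84122040, minus strand). SEMA3C, which binds neuropilins and plexin-D1, lies on the same chromosome and strand (ENSG00000075223, 80371854 to 80551675). SEMA3C had 19.41 and 19.03 CPM in the ILF2 shRNA libraries, against 14.2 and 13.5 CPM in the non-silencing libraries, a log2 fold change of 0.47 (SE 0.09). Replicates of SEMA3C were close in both groups, and its value stayed between 0.44 and 0.51 over 9 alternative fits.

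The transmembrane class 4 held the most abundant gene and differences in both directions. SEMA4D, also known as CD100, which binds plexin-B1 and in lymphocytes CD72, had 71.9 and 75.1 CPM in the ILF2 shRNA libraries, against 48.2 and 44.4 CPM in the non-silencing libraries. With a log2 fold change of 0.67 (SE 0.07) it was 58.8% higher, the largest difference among the 8 described genes above 1 CPM in both groups, and it stayed between 0.61 and 0.73 over the 9 alternative fits. Its exons cover 14160 bases on chromosome 9 (ENSG00000187764, 91975702 to 92113045, minus strand). SEMA4C (ENSG00000168758, chromosome 2, 97525453 to 97536494, minus strand), a ligand of plexin-B2, went the other way. SEMA4C had 56.2 and 64.6 CPM with ILF2 shRNA, against 80.1 and 78.6 CPM with the non-silencing shRNA, a log2 fold change of -0.39 (SE 0.07). The groups of SEMA4C did not overlap, though its ILF2 shRNA libraries lay further apart than its non-silencing libraries, and the value was -0.50 without ILF2 shRNA replicate 2 and -0.29 without ILF2 shRNA replicate 1.

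The promoters of SEMA4D and SEMA4C are shown because these were the only 2 called semaphorins above 1 CPM with a single start site in the RefSeq table, which held windows for 9 of the 10 genes, and they differed in opposite directions. SEMA7A, the called gene with the lowest log2 fold change, has more than 1 start site there and is not shown. Each line gives the 250 bases before the RefSeq start (from the GRCh38.p14 table, placed by exact match on GRCh37), 5′ to 3′ on the gene's minus strand, with every CG dinucleotide in capitals. The windows lie at chr9:92110572-92110821 for SEMA4D and chr2:97535818-97536067 for SEMA4C, and neither overlaps an exon of the annotation used for counting.
SEMA4D: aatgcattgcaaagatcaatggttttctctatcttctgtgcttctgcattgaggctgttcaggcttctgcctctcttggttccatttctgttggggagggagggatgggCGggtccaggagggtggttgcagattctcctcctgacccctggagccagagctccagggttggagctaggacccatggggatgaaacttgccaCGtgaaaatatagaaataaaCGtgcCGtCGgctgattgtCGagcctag
SEMA4C: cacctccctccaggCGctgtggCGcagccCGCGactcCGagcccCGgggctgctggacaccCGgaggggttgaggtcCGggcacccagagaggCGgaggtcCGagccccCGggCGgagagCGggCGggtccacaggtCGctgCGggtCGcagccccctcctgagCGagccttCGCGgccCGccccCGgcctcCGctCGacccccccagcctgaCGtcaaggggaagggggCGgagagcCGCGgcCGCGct

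The windows differ in base composition. The SEMA4D window holds 6 CG dinucleotides at 52.4% G and C, and the SEMA4C window holds 30 at 78.0%, where the median over all 35116 promoter windows is 11 CG dinucleotides and 58% G and C. CG, which reads the same on both strands, occurs in 93.9% of all windows, and 38.1% of windows hold fewer than the SEMA4D window and 87.6% fewer than the SEMA4C window. The annotation has further starts upstream for both genes, and which start these cells used was not measured by counts summed per gene.

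SEMA4A differed little in proportion although it changed most in absolute level. It had 496 and 525 CPM in the ILF2 shRNA libraries, against 453 and 425 CPM in the non-silencing libraries, a log2 fold change of 0.22 (SE 0.07), or 16.3% higher. The difference was not past the threshold without ILF2 shRNA replicate 2 (log2 fold change 0.18), without non-silencing replicate 1 (0.26) or without non-silencing replicate 2 (0.17). SEMA4A lies 2.47 Mb from ILF2 on the long arm of chromosome 1.

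The other class 4 genes were not called. SEMA4B (ENSG00000185033, chromosome 15) had 37.2 and 38.7 CPM with ILF2 shRNA and 35.3 and 34.5 CPM with the non-silencing shRNA, a log2 fold change of 0.12 (SE 0.08). SEMA4F (ENSG00000135622, chromosome 2) had 8.06 and 8.03 CPM with ILF2 shRNA and 7.98 and 7.65 CPM with the non-silencing shRNA, a log2 fold change of 0.04 (SE 0.10). Both groups were narrow for these genes, and the distance between them was small. SEMA4G (ENSG00000095539, chromosome 10) had 31 and 14 fragments in the ILF2 shRNA libraries and 15 in each non-silencing library, so its log2 fold change of 0.72 (SE 0.42) came from 1 library and was -0.02 without ILF2 shRNA replicate 1. SEMA4G overlaps the mitochondrial ribosomal protein gene MRPL43 on the opposite strand, which had 2383 to 2756 fragments per library. The authors counted by strand, and the part of stray MRPL43 fragments in the SEMA4G count was not tested.

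SEMA6D and SEMA7A both lie on chromosome 15 and differed in opposite directions. SEMA6D, a transmembrane ligand of plexin-A1 (ENSG00000137872, 47476298 to 48066420, plus strand), had 14.1 and 13.8 CPM in the ILF2 shRNA libraries, against 10.9 and 11.6 CPM in the non-silencing libraries, a log2 fold change of 0.31 (SE 0.09). SEMA7A, which binds plexin-C1 and β1 integrin (ENSG00000138623, 74701630 to 74726808, minus strand), had 7.09 and 7.24 CPM with ILF2 shRNA, against 10.2 and 9.14 CPM with the non-silencing shRNA, a log2 fold change of -0.44 (SE 0.10). In both genes the groups did not overlap and the spread was wider in the non-silencing libraries. Without non-silencing replicate 1 neither was past the threshold, with log2 fold changes of 0.26 for SEMA6D and -0.35 for SEMA7A.

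**Figure D2:**
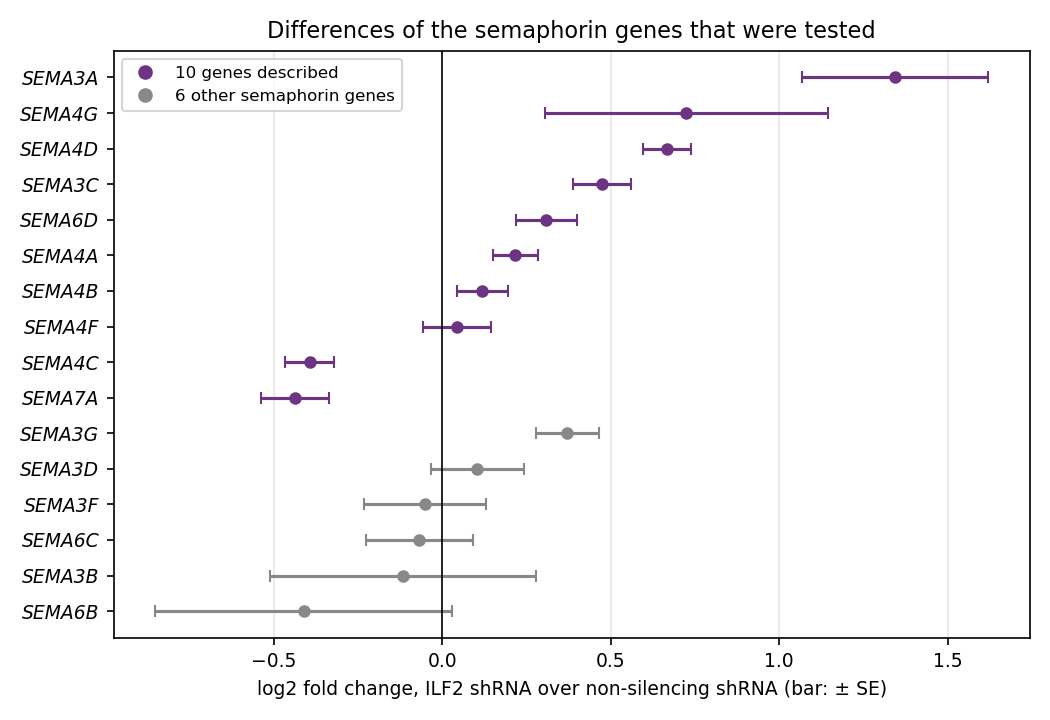
Log2 fold change of ILF2 shRNA over non-silencing shRNA (x axis) for the 16 semaphorin genes that passed the low-count filter, with bars of ± SE from edgeR (4 libraries). Among the 10 described genes 8 lie above 0 and SEMA4C and SEMA7A below it, and SEMA4G has the widest bar among them.

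**Figure D3:**
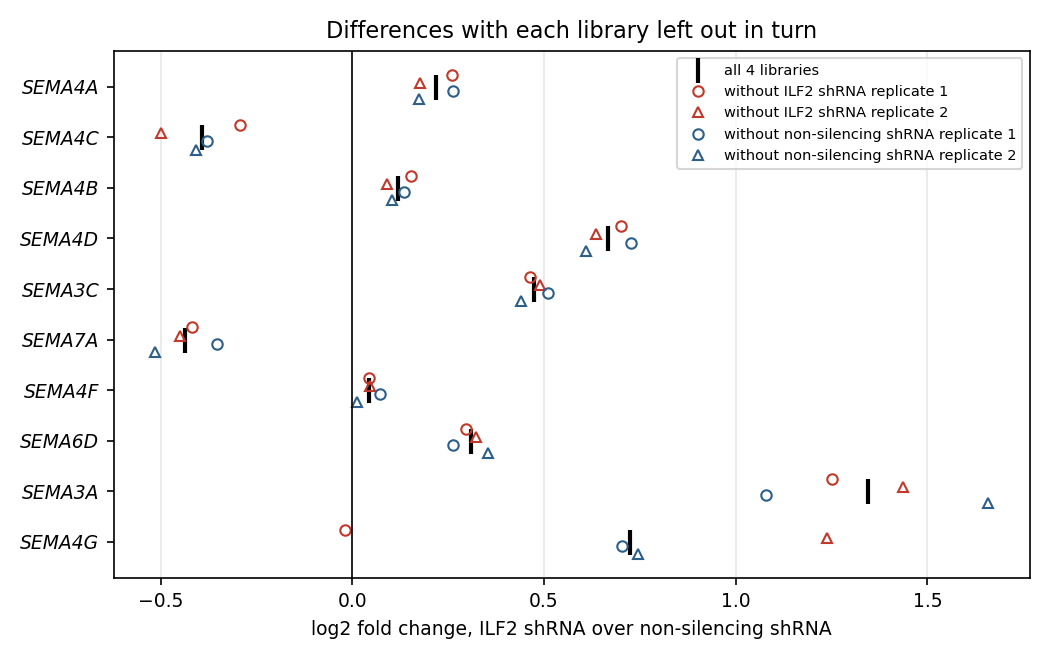
Log2 fold change of the 10 semaphorin genes with all 4 libraries (black bars) and with each library left out in turn (open symbols). SEMA4G moves to -0.02 without ILF2 shRNA replicate 1, and the other 9 genes keep their sign.

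Of the 10 other human semaphorin genes, 6 passed the filter, and 1 was called, beside 20.3% of all tested genes. This was SEMA3G, a secreted class 3 member, with 13.5 and 13.6 CPM in the ILF2 shRNA libraries against 11.0 and 9.85 CPM in the non-silencing libraries (log2 fold change 0.37, SE 0.09). By the mean over the 4 libraries it stood between SEMA3C and SEMA7A in level. SEMA3B, SEMA3D, SEMA3F, SEMA6B and SEMA6C were not called, with log2 fold changes from -0.41 to 0.10. SEMA3E and SEMA5B had no fragment in any library, and SEMA5A and SEMA6A had 7 or fewer.

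To set the ligands beside the machinery that reads them, plexins and other receptors were examined in the same fit. These genes were not used to choose the semaphorins, but their lists too were chosen with earlier results of these data known. Of 9 plexin genes 8 were tested, and 2 rose and 3 fell with ILF2 shRNA, beside 10.2% of all tested genes called higher and 10.1% lower, and the median was 0.00 on the log2 scale, the same to 2 decimals as over all tested genes. By class, the called class A plexins were higher and the called class B and C plexins lower, although PLXNB1, PLXNB2 and PLXNA2 lost their calls in some fits given below. PLXNA4 had 1 fragment or none in each library.

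PLXNC1, the receptor of SEMA7A, fell. It had 52.1 and 52.0 CPM in the ILF2 shRNA libraries, against 73.9 and 76.4 CPM in the non-silencing libraries (edgeR log2 fold change -0.53, SE 0.07, adjusted p = 3.8e-08). The groups were far apart relative to their spread, and the call held in all 9 alternative fits (adjusted p from 8.7e-12 to 5.7e-05). SEMA7A itself was lower in the same libraries.

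The class B plexins receive class 4 semaphorins. PLXNB2, the most abundant plexin per kb of exon, had 153 and 167 CPM with ILF2 shRNA against 203 and 180 CPM with the non-silencing shRNA (edgeR log2 fold change -0.26, SE 0.07, adjusted p = 0.00408). Its adjusted p ran from 1.4e-05 to 0.337 over the alternatives and was highest without non-silencing replicate 1, where the log2 fold change was -0.17. PLXNB1, the receptor best known for SEMA4D, was scarce, at 1.05 and 1.07 CPM with ILF2 shRNA against 1.39 and 1.85 CPM with the non-silencing shRNA (edgeR log2 fold change -0.61, SE 0.19, adjusted p = 0.0187). The adjusted p of PLXNB1 ran from 0.00928 to 0.386 and passed the threshold in 5 of 9 alternatives. It did not pass by DESeq2, without either ILF2 shRNA library (log2 fold changes of -0.59 and -0.62) or without non-silencing replicate 2 (-0.39). PLXNB3 was below 1 CPM and was not called (log2 fold change 0.12, SE 0.26).

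Class A plexins pair with neuropilins for class 3 ligands and bind class 6 ligands directly. PLXNA3 rose, with 40.9 and 43.6 CPM in the ILF2 shRNA libraries against 31.9 and 27.9 CPM in the non-silencing libraries (edgeR log2 fold change 0.50, SE 0.08, adjusted p = 1.5e-06), and its call held in all 9 alternatives (adjusted p from 3.3e-09 to 0.00492). PLXNA2 rose from a low level, with 1.07 and 1.16 CPM with ILF2 shRNA against 0.553 and 0.722 CPM with the non-silencing shRNA (edgeR log2 fold change 0.80, SE 0.23, adjusted p = 0.00865). Its adjusted p ran from 0.00646 to 0.165, and the call ended by DESeq2, without ILF2 shRNA replicate 2 (log2 fold change 0.74) and without non-silencing replicate 1 (0.62). PLXNA1, the most abundant class A plexin, had 196 and 205 CPM with ILF2 shRNA and 187 and 170 CPM with the non-silencing shRNA, and was not called (edgeR log2 fold change 0.17, SE 0.07, adjusted p = 0.0627). Over the alternatives with all 4 libraries its adjusted p ran from 0.00211, with a crossed block added after seeing the data, to 0.258. PLXNA1 was called with that block and without ILF2 shRNA replicate 1 (log2 fold change 0.21). PLXND1, which serves SEMA3C and SEMA4A among others, had 22.6 and 24.8 CPM with ILF2 shRNA and 26.8 and 24.4 CPM with the non-silencing shRNA, and its groups overlapped (log2 fold change -0.11, SE 0.08).

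Of 14 co-receptors and other receptors, 9 were tested, of which 2 fell and 0 rose in edgeR, a share near the 20.3% called over all tested genes. Their median log2 fold change was -0.21. The list and the 2 that fell include LILRB4, which was entered in place of LILRB2, as given below. At an unadjusted p under 0.05 there were 2 lower and 1 higher, and DESeq2 called 1 lower and 0 higher. NRP2, a neuropilin for class 3 semaphorins, had 32 and 31 fragments in the ILF2 shRNA libraries against 64 and 75 in the non-silencing libraries. NRP2 thus stood at 0.502 and 0.448 CPM with ILF2 shRNA and at 0.864 and 1.04 CPM with the non-silencing shRNA (edgeR log2 fold change -1.002, SE 0.26, adjusted p = 0.00273). The adjusted p ran from 0.00168 to 0.0711 over the alternatives, and the call ended by DESeq2 and without non-silencing replicate 2 (log2 fold change -0.86). NRP1, the main neuropilin of SEMA3A, had 2 to 6 fragments per library and was not tested.

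LILRB4, an inhibitory receptor of the leukocyte immunoglobulin-like family, was the other gene that fell. It had 121 and 139 CPM with ILF2 shRNA against 157 and 147 CPM with the non-silencing shRNA (edgeR log2 fold change -0.23, SE 0.07, adjusted p = 0.0143). Its adjusted p ran from 0.000103 to 0.302, and the call ended without ILF2 shRNA replicate 1 (log2 fold change -0.13) and without either non-silencing library (-0.18 without replicate 1 and -0.27 without replicate 2). LILRB4 was entered in the list in place of its relative LILRB2, the described human receptor of SEMA4A, and LILRB2, looked up afterwards, had 1 fragment in 1 library and 0 in the other 3. ITGB1, the β1 integrin gene whose product binds SEMA7A, had 123 and 112 CPM with ILF2 shRNA and 110 and 116 CPM with the non-silencing shRNA, with overlapping groups (log2 fold change 0.06, SE 0.07).

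The remaining receptors were low or did not pass the test. MET, a receptor tyrosine kinase that can pair with class B plexins, had 38.2 and 35.5 CPM with ILF2 shRNA and 31.5 and 33.8 CPM with the non-silencing shRNA (log2 fold change 0.17, SE 0.08; edgeR adjusted p = 0.106). ERBB2, another partner of class B plexins, had 3.19 and 3.05 CPM with ILF2 shRNA and 2.71 and 2.93 CPM with the non-silencing shRNA. CD72, the lymphocyte receptor of SEMA4D, had 27 and 16 fragments with ILF2 shRNA and 16 and 18 with the non-silencing shRNA, and its groups overlapped. MST1R, ITGA1 and L1CAM were below 1 CPM and were not called. KDR, TREM2 and TYROBP had no fragment in any library, and PTK7 had 5 or fewer.

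**Figure D4:**
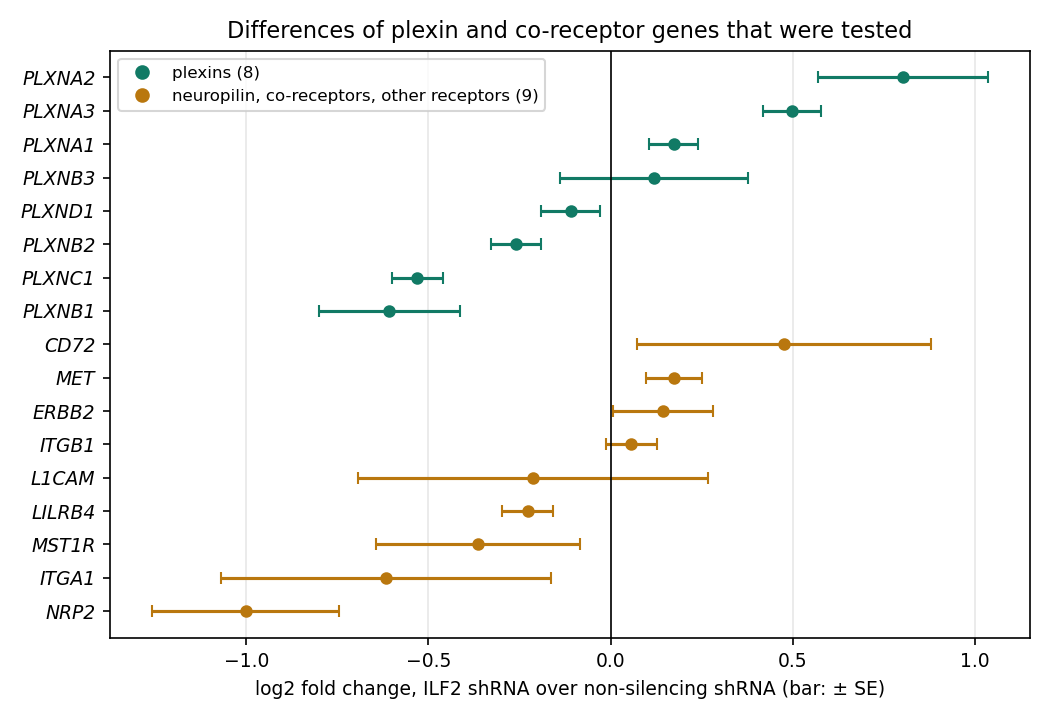
Log2 fold change of ILF2 shRNA over non-silencing shRNA (x axis) for the 8 tested plexin genes and the 9 tested co-receptors and other receptors, with bars of ± SE from edgeR (4 libraries). PLXNA2 and PLXNA3 stand highest among the plexins at 0.80 and 0.50, PLXNC1 and PLXNB1 lowest at -0.53 and -0.61, and NRP2 is the lowest receptor at -1.002.

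Of 36 genes for signalling inside the cell downstream of plexins, 35 were tested, and 4 rose and 5 fell, beside 20.3% called over all tested genes, with a median log2 fold change of 0.03. DPYSL2, which encodes CRMP2, the protein that relays SEMA3A signals to microtubules in neurons, fell most. DPYSL2 had 76.9 and 78.4 CPM in the ILF2 shRNA libraries, against 118 and 123 CPM in the non-silencing libraries (edgeR log2 fold change -0.64, SE 0.07, adjusted p = 1.2e-10). Its adjusted p stayed at 4.15e-07 or less in all 9 alternatives. Its relatives went in both directions. CRMP1 and DPYSL4 fell, by 0.59 and 0.44 on the log2 scale (edgeR adjusted p = 0.00835 and 0.0177). DPYSL3 was not called (log2 fold change 0.10), and DPYSL5 rose, as given below. CRMP1 lost its call by DESeq2, without ILF2 shRNA replicate 1 (log2 fold change -0.34) and without non-silencing replicate 2 (-0.50). DPYSL4 lost its call by DESeq2, without ILF2 shRNA replicate 2 (-0.37) and without either non-silencing library (-0.47 without replicate 1 and -0.40 without replicate 2). The adjusted p reached 0.239 for CRMP1 and 0.144 for DPYSL4, from lowest values of 0.000651 and 0.00761.

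FARP1, a guanine nucleotide exchange factor of the same small group as the plexin-A partner FARP2, had 20.1 and 19.1 CPM with ILF2 shRNA against 26.1 and 25.6 CPM with the non-silencing shRNA (edgeR log2 fold change -0.40, SE 0.08, adjusted p = 0.000152). This call held in all 9 alternatives (adjusted p from 2.7e-06 to 0.00869). RND3 rose, with 27.4 and 26.3 CPM with ILF2 shRNA against 18.8 and 19.3 CPM with the non-silencing shRNA (edgeR log2 fold change 0.49, SE 0.08, adjusted p = 4e-06), and it too held in all 9 (adjusted p from 5e-08 to 0.00107). RAP1A, one of the GTPases on which the inner part of plexins acts, rose by 0.36 (SE 0.07; edgeR adjusted p = 0.000168), and it lost its call when non-silencing replicate 2 was left out (log2 fold change 0.29, adjusted p = 0.0608, within a range from 1.9e-06 to that value).

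PAK1, a kinase gene that acts below Rac, rose by 0.28 (edgeR adjusted p = 0.012; 0.000737 to 0.148 over the alternatives). Its call ended without ILF2 shRNA replicate 2 (log2 fold change 0.24) and without either non-silencing library (0.29 without replicate 1 and 0.26 without replicate 2). DPYSL5 rose by 0.35 (edgeR adjusted p = 0.0241; 0.00871 to 0.272 over the alternatives), and its call was kept in 3 of 9 alternatives and in none that left out a library, where the log2 fold change was 0.28 to 0.43.

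Of 8 genes for proteases that cleave semaphorins, 7 were tested, of which 1 rose and 0 fell in edgeR, beside 20.3% called over all tested genes. Their median log2 fold change was 0.03. At an unadjusted p under 0.05 there were 1 higher and 1 lower, and DESeq2 called 1 higher and 0 lower. ADAM10, a membrane sheddase, had 188 and 170 CPM with ILF2 shRNA against 155 and 157 CPM with the non-silencing shRNA (edgeR log2 fold change 0.20, SE 0.07, adjusted p = 0.0316). Over the alternatives with all 4 libraries its adjusted p ran from 0.000841, with a crossed block added after seeing the data, to 0.19. ADAM10 lost its call with the replicate block and without ILF2 shRNA replicate 1 (log2 fold change 0.12). The call was also lost without either non-silencing library (0.18 without replicate 1 and 0.21 without replicate 2). MMP14, a metalloprotease known to release SEMA4D, had 5 fragments in each ILF2 shRNA library against 19 and 7 in the non-silencing libraries and was not tested.

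Genes next to the semaphorins were compared to see whether a whole neighbourhood differed. The nearest tested gene on each side within 100 kb gave 10 neighbours of 7 of the 10 semaphorins, of which 2 rose and 2 fell, beside 10.2% higher and 10.1% lower over all tested genes, with a median log2 fold change of 0.10. Around SEMA4A, the lamin gene LMNA and SLC25A44 were not called, with log2 fold changes of 0.11 and 0.02. Around SEMA4B, which had a log2 fold change of 0.12, IDH2 and CIB1 were not called and had 0.12 and 0.10. TWNK, beside SEMA4G, was not called and had a log2 fold change of 0.11, beside 0.72 for SEMA4G. SECISBP2, which lies 1145 bases from SEMA4D on the opposite strand, was not called and had a log2 fold change of -0.15, beside 0.67 for SEMA4D, whose promoter is printed above.

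Of the 4 called neighbours, ANKRD39 and UBL7 differed in the direction opposite to a called semaphorin, and SLF2 and DOK1 lie beside SEMA4G and SEMA4F, which were not called. ANKRD39, 1621 bases from SEMA4C on the same strand, rose with 28.1 and 30.4 CPM under ILF2 shRNA against 25.0 and 21.6 CPM under the non-silencing shRNA (edgeR log2 fold change 0.33, SE 0.08, adjusted p = 0.00208), while SEMA4C had a log2 fold change of -0.39. This call ended without non-silencing replicate 2 (log2 fold change 0.23, adjusted p = 0.206, in a range from 2.7e-05 to that value). UBL7, 11510 bases from SEMA7A, rose by 0.21 (edgeR adjusted p = 0.0379; 0.0017 to 0.338 over the alternatives), a call kept in 3 of 9 alternatives. Without ILF2 shRNA replicate 2 the log2 fold change of UBL7 was 0.17, and without non-silencing replicates 1 and 2 in turn it was 0.24 and 0.19. SLF2 beside SEMA4G fell by 0.28 on the log2 scale (edgeR adjusted p = 0.00273; 6.7e-06 to 0.158), and lost its call without ILF2 shRNA replicate 2 (-0.20) and without non-silencing replicate 2 (-0.23). DOK1, 96674 bases from SEMA4F, fell by 0.40 (edgeR adjusted p = 0.000233; 5.8e-06 to 0.0283) and kept its call throughout.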

How the data were processed

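RNA from 4 H929 libraries was compared. The authors deposited raw counts, 1 table per library: featureCounts (Subread 1.4.6-p2) counted paired fragments over exons, summed by gene, with strand setting 2 and an Ensembl annotation of GRCh37, per the file headers. The headers show no option for fragments that fit several genes or places, and such fragments were assumed not to be counted. STAR 2.3.0 and SAMtools 0.1.19 are named per the submitters' processing notes, while the design text names Tophat2.

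Symbols were matched by Ensembl ID to a reference table of gene names (55665 of 63677 genes). Counts were tested in edgeR 4.0.16 (R 4.3.3) with TMM factors of 0.970 to 1.02, filterByExpr (minimum count 10), robust dispersion, a two-sided quasi-likelihood test on group alone, and p-values adjusted by Benjamini-Hochberg over 19142 genes. The fit has 2 residual degrees of freedom. SE came from the F statistic. CPM uses TMM-adjusted library sizes and is divided by exon length for levels between genes. The procedure was checked on simulated counts. The smallest fragment counts carry the largest counting error.

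The semaphorins, the lists of partner genes and the rule for naming genes were chosen with earlier results of these data known. Named were every semaphorin and tested receptor, up to 4 called signalling or protease genes per direction by smallest adjusted p, and called neighbours. DPYSL3, which was not called, was added as a relative of DPYSL2. Also added were the neighbours that were not called, and MMP14 and the receptors that were not tested. Alternatives were DESeq2 1.42.0, its size factors in edgeR, no filter, a replicate block, each library left out, and, added after seeing the data, a crossed block. The low end of several adjusted p ranges came from that crossed block. Among them are the ranges of PLXNA1, PLXNA2, PLXNA3, PLXNB2, LILRB4, FARP1, RND3, DPYSL4, DPYSL5, PAK1, ADAM10, ANKRD39 and DOK1.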

Additional observations from a re-analysis of the deposited data

How the results depend on the processing

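ILF2 kept its direction and call in all 9 alternatives (log2 fold change -2.76 to -2.66). The called semaphorins numbered 7 in the fit described, 7 by DESeq2, with its size factors, without a filter or with the crossed block, 5 with the replicate block, and 4 to 7 with a library left out, lowest without non-silencing replicate 1. Over all genes the 3885 calls became 2741 by DESeq2, 2588 with the replicate block and 2099 to 3721 with a library left out. The 5 called plexins became 3 by DESeq2 and 3 to 5 with a library left out. With a library left out the 9 called signalling genes became 4 to 7 and the 4 called neighbours 1 to 4. The 2 called co-receptors became 1 by DESeq2, 1 with the replicate block and 0 to 2 with a library left out. The 1 called protease became 0 with the replicate block, 3 with the crossed block and 0 to 2 with a library left out. No result turned its direction past the threshold. The cause of these shifts was not tested, beyond fewer samples when a library is left out. The replicate block ended the calls of SEMA4A, SEMA6D, PLXNB2, LILRB4, PAK1, DPYSL5, UBL7 and ADAM10 among the genes named. The replicate numbers share no stated source, and same-numbered libraries deviated with a correlation of -0.207. The replicate block made 2588 calls and the crossed replicate block 5728, the crossed one being chosen after seeing the data. Depth limits the tested genes named that had under 100 fragments in every library, which are SEMA3A, SEMA3B, SEMA4G, SEMA6B, PLXNA2, PLXNB3, NRP2, CD72, ITGA1, MST1R and L1CAM.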
